A study of Mus musculus with 11 samples.

Results

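Brain tumors of mice driven by an active NRAS were compared with normal mouse brain, gene family by gene family across the transcriptome. The comparison uses 7 of the 11 RNA-seq libraries of the study, chosen by their titles: 4 NRAS tumors, here NRAS 1 to 4, and 3 normal brains, here normal 1 to 3. The remaining 4 libraries, tumors driven by PDGFB, entered the same statistical fit and appear only where a difference between the tumor models was tested. The NRAS tumors are labelled nRas-G12V overexpression, the PDGFB tumors PDGFb overexpression and the normal brains WT control. According to the study's design text, newborn FVB mice received plasmids in the right lateral ventricle that coded for Sleeping Beauty transposase, firefly luciferase, SV40 large T antigen and either the mutant NRAS or PDGFB. Tumors were taken at mid-stage, dissected under GFP goggles that separated the fluorescent tumor region from tissue without fluorescence. The ages in days were not given in the sources used here.

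Several features limit the groups as models. Both tumor types carried large T, which binds p53 and the retinoblastoma protein, so in a difference from normal brain the parts of NRAS and of large T cannot be told apart. The design text names FVB mice, whereas the sample labels give B6 for all 4 NRAS tumors, all 4 PDGFB tumors and 2 of the normal brains. Normal 3 is labelled FVB. The brain region of the normal tissue is not labelled, and normal 1 is titled as the match of NRAS 2 and normal 3 as that of a PDGFB tumor. Whether these matched normals were tumor-free tissue of injected mice is not stated. Titles are numbered in 2 runs: 1834 to 1838 hold all 3 normal brains with NRAS 1 and NRAS 2, and later numbers hold NRAS 3, NRAS 4 and the PDGFB tumors. Nothing in the labels says whether libraries of a group came from separate animals, so p-values measure only the spread between these libraries.

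RAS proteins are small GTPases that pass signals from receptor tyrosine kinases to the RAF, MEK and ERK kinases and to phosphoinositide 3-kinase. ERK switches on transcription factors of the ETS and AP-1 families and also its own inhibitors, the dual specificity phosphatases and Sprouty proteins. When large T binds the retinoblastoma protein, E2F factors are released to switch on genes of DNA synthesis. Normal brain tissue is rich in transcripts of neurons and myelinating oligodendrocytes, whose channels, receptors and synaptic proteins belong to large gene families, while gliomas hold tumor cells together with microglia, infiltrating leukocytes and vessels.

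Levels are FPKM, fragments scaled to transcript length and to the mapped fragments of the library, as the authors deposited them. A difference is given as the log2 change, the mean of log2(FPKM + 1) in NRAS tumors minus that in normal brain, with its standard error (SE); it understates the change of genes with low values. A gene was called changed when the limma p-value, adjusted by Benjamini and Hochberg over all 14491 genes tested, was under 0.05. Genes of 1 FPKM or more in 3 libraries or more were tested. Each library had between 12705 and 13923 genes at 1 FPKM or more, and the depth, which the table does not state, differed by at most the ratio of 0.776 to 1 judged from the spacing of the lowest values. Small RNAs took 10.5% to 42.8% of the summed FPKM.

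The driver matched the labels. Nras stood at 13.8, 13 and 17.5 FPKM in normal 1 to 3 and at 154, 139, 119.7 and 82 FPKM in NRAS 1 to 4, a log2 change of 2.96 ± 0.20 (SE) with an adjusted p of 3.58e-06. All 4 tumors lay above all 3 normal brains. Of the partners and relatives, Trp53, which encodes p53, rose by 2.26 ± 0.24 (SE), Hras fell by 0.59 ± 0.18 with an adjusted p of 0.0168, and Rb1 had a log2 change of 0.56 ± 0.24 that did not pass the test. Without normal 1 Hras had a change of −0.56 with an adjusted p of 0.0531 and without normal 3 of −0.56 with an adjusted p of 0.0546. Rb1 passed without NRAS 4, at 0.69 with an adjusted p of 0.029.

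NRAS tumors differed from normal brain across most of the transcriptome. Of 14491 genes tested, 4631 (32.0%) were higher in the tumors and 4392 (30.3%) lower, 62.3% together. At least 2-fold changes among them were 2560 higher (17.7%) and 2279 lower (15.7%). At least 4-fold changes were less even, with 1007 genes higher and 484 lower, and at least 16-fold changes numbered 135 higher and 5 lower. The median log2 change over all genes was 0.014. Libraries of the groups did not overlap for 33.2% of genes with the tumors above and 31.9% with the tumors below. Where a family below has 0 members in 1 direction, the limma count at an unadjusted p under 0.05 was 0 as well, apart from 1 each for collagen-modifying enzymes, cathepsins, nucleoporins and Fc receptors. The shares over all genes are the background against which each family below is read: a family near 32.0% higher and 30.3% lower is like the transcriptome. The counts for the 5 libraries numbered 1834 to 1838 alone were 3427 higher and 3074 lower.

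Among the genes that passed the test with non-overlapping groups, the largest increase was that of Cdkn2a, which codes for the cell cycle inhibitor p16 and for the p53 activator p19. Cdkn2a read 0, 0.104 and 0.413 FPKM in the normal brains and 446, 191, 348 and 162 FPKM in NRAS 1 to 4, a log2 change of 7.83 ± 0.35 (SE) with an adjusted p of 1.70e-07. Next came Cd74 and H2-Aa, which serve antigen presentation on MHC class II, with 7.35 ± 0.71 and 7.23 ± 0.77, the arginine-degrading enzyme Arg1 with 7.32 ± 0.58 and the protease inhibitor Timp1 with 6.87 ± 0.30. The chromatin protein Hmga2 (6.42 ± 0.30), the interferon-induced GTPase Igtp (6.34 ± 1.04), the growth factor carrier Igfbp3 (6.06 ± 0.33), the fungal pattern receptor Clec7a (6.06 ± 0.55) and the galectin Lgals3 (5.81 ± 0.26) were among the 20 genes with the largest increase. At the other end stood Ttr, the thyroxine carrier made by choroid plexus, at 811, 2002 and 1595 FPKM in the normal brains and 36.5, 0.501, 0.173 and 1.34 FPKM in the tumors, with a log2 change of −8.61 ± 1.90 (SE). NRAS 1 kept the most Ttr of the 4 tumors. The other deep decreases were those of the calcium buffers Calb2 (−4.10 ± 0.52) and Calb1 (−3.34 ± 0.68), the neuropeptide genes Cartpt (−4.10 ± 0.55), Tac1 (−4.02 ± 0.48) and Pmch (−3.94 ± 0.80), and of the striatal genes Drd2 (−3.51 ± 0.41), Ppp1r1b (−3.41 ± 0.58) and Adcy5 (−3.14 ± 0.35).

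**Figure D1:**
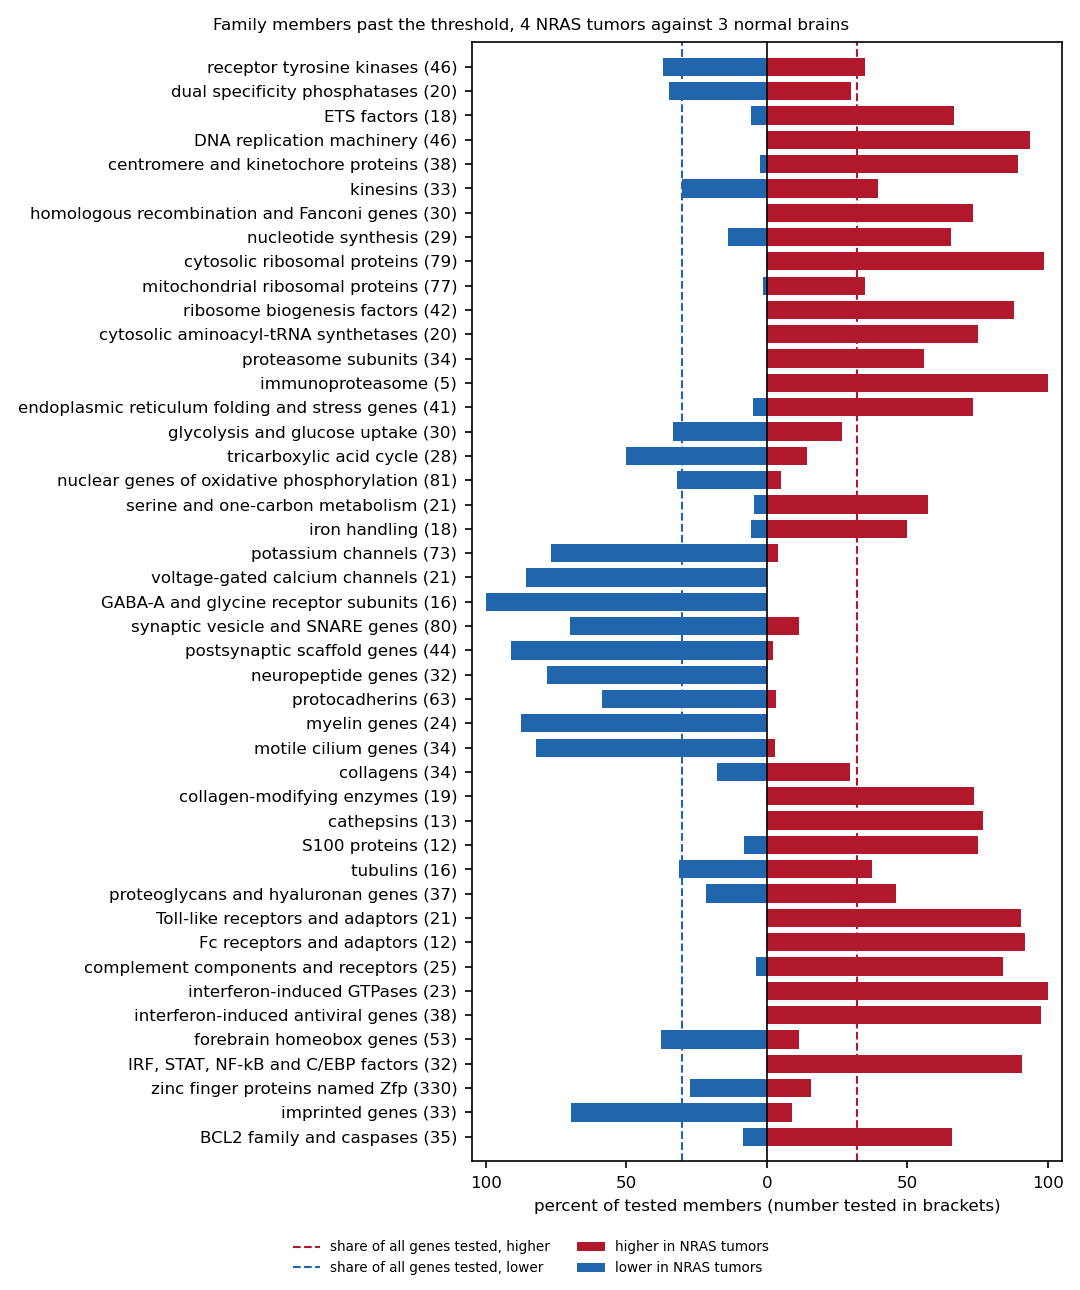
Share of tested members of 45 gene families that passed the test, in percent, higher (red, to the right) or lower (blue, to the left) in 4 NRAS tumors than in 3 normal brains; dashed lines mark the shares over all genes tested, 32.0% and 30.3%. Interferon-induced GTPases, the immunoproteasome and cytosolic ribosomal proteins lie at or near 100% on the right, and receptor subunits for GABA and glycine at 100% on the left.

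Growth signaling families were split, with the largest increases in a few members. Of 46 receptor tyrosine kinases tested (of 52 in the table), 16 rose and 17 fell, close to the background. Epha2, a receptor for ephrins, stood at 0.229, 0.466 and 0.391 FPKM in normal brain and 15.3, 14.4, 13.3 and 13.3 FPKM in NRAS 1 to 4, a log2 change of 3.47 ± 0.13 (SE) and an adjusted p of 1.04e-07. The collagen receptor Ddr2 rose by 2.88 ± 0.35, the TAM receptor Axl by 2.27 ± 0.35, the WNT-linked pseudokinase Ptk7 by 2.21 ± 0.16 and the hepatocyte growth factor receptor Met by 1.75 ± 0.31. Members that neurons use fell: Epha4 by 1.75 ± 0.39, Epha10 by 1.94 ± 0.41, the neurotrophin receptor Ntrk2 by 1.25 ± 0.18 and Tyro3 by 1.46 ± 0.27. Of 41 growth factor ligands tested, 11 rose (26.8%) and 12 fell (29.3%), near the background. The 3 largest increases were those of EGF receptor ligands. Areg stood at 0.14, 0 and 0 FPKM in the normal brains and at 26, 31.7, 8.2 and 60.6 FPKM in the tumors, with a log2 change of 4.67 ± 0.49 (SE) and an adjusted p of 4.07e-05. Hbegf rose by 3.74 ± 0.23 and Ereg by 3.69 ± 0.28. The midkine gene Mdk rose by 2.84 ± 0.46, and the intracellular FGF homologues Fgf12, Fgf13 and Fgf14, which bind sodium channels, changed by −2.24 ± 0.33, −2.43 ± 0.42 and −2.07 ± 0.39.

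Feedback inhibitors of ERK moved member by member. Of 20 dual specificity phosphatases tested, 6 rose and 7 fell. Dusp5, a nuclear ERK phosphatase, stood at 2.49, 2.86 and 1.65 FPKM in normal brain and 18.1, 16.6, 14.8 and 20.7 FPKM in the tumors, a log2 change of 2.48 ± 0.19 (SE) with an adjusted p of 6.19e-06. Its relatives with ERK as substrate, Dusp4 and Dusp6, rose by 2.78 ± 0.27 and 2.59 ± 0.21, whereas Dusp8, which prefers the stress kinases JNK and p38, fell by 1.94 ± 0.35 and Dusp3 by 1.17 ± 0.28. All 7 Sprouty and Spred genes were tested: Spry4 (3.09 ± 0.21), Spry1 (2.87 ± 0.27), Spry2 (1.60 ± 0.29) and Spred1 (0.91 ± 0.13) rose and Spry3 fell by 0.72 ± 0.21. ETS factors rose more often than the background, 12 of 18 against 1 that fell, with a median of 1.11. They included Etv4 (2.36 ± 0.25) and Etv5 (1.12 ± 0.24), whose transcription responds to ERK, the ternary complex factor Elk3 (2.63 ± 0.16) and the myeloid factor Spi1 (2.87 ± 0.40). AP-1 genes likewise rose in 15 of 23, among them Maff (3.25 ± 0.25), Atf3 (3.23 ± 0.29) and Jun (1.65 ± 0.17), while Atf2 and Jund fell. Fosl1 was listed at 0 in all 3 normal brains and at 5.88, 2.63, 4.02 and 6.27 FPKM in NRAS 1 to 4. Counts of fallen members depended on single libraries for 3 of these lists: Spry3 had a change of −0.65 with an adjusted p of 0.0501 without normal 2, ETS factors that fell numbered 0 without normal 3 and 2 without NRAS 4, and Jund did not pass without normal 1 or without NRAS 1. Among libraries numbered 1834 to 1838, 4 phosphatases fell.

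RGS proteins, which shut off G proteins, fell more often than they rose. Among 17 tested 3 rose and 8 fell, or 5 within titles 1834 to 1838. Rgs1 of leukocytes rose by 3.10 ± 0.59 and Rgs16 by 2.09 ± 0.43, and Rgs9, known from the striatum, fell by 2.66 ± 0.36.

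Genes that copy DNA rose nearly without exception. Of 46 replication genes, all of them tested, 43 rose, 39 of them at least 2-fold, and 0 fell in the fit of all libraries, with a median log2 change of 2.25; without NRAS 4, 1 fell. Mcm6, a subunit of the replicative helicase, stood at 0.948, 1.21 and 0.835 FPKM in normal brain and 95.4, 22.8, 55.3 and 48.3 FPKM in NRAS 1 to 4, a log2 change of 4.66 ± 0.38 (SE) with an adjusted p of 8.43e-06. The helicase subunits Mcm3 (4.29 ± 0.32), Mcm2 (4.04 ± 0.33) and Mcm7 (3.29 ± 0.40) followed, as did Gins2 (3.65 ± 0.30) and the sliding clamp Pcna (2.18 ± 0.29). NRAS 2 was the lowest of the 4 tumors for Mcm6 and still above every normal brain. Because these members moved together and E2F factors are known to bind near their starts, promoters were searched for 4 spellings of the E2F site, TTTCCCGC, TTTCGCGC, TTTGCCGC and TTTGGCGC, on both strands of the 250 bases before each start site (RefSeq, GRCm38.p6). Windows were found for 37 of the 46 genes, and 9 of them (24.3%) held a match, against 423 of 11442 tested genes with a window (3.70%) and 583 of 27025 genes in all (2.16%). The same search gave 4 of 33 kinetochore genes (12.1%), 3 of 23 recombination genes (13%) and 1 of 25 nucleotide synthesis genes (4%). The following are the replication genes of largest increase whose window held a match, printed 5′ to 3′ up to the start site with matches in capitals; the 3 windows are chr1:128359706-128359955 on the minus strand, chr8:75109259-75109508 on the plus strand and chr5:138171884-138172133 on the minus strand.
Mcm6: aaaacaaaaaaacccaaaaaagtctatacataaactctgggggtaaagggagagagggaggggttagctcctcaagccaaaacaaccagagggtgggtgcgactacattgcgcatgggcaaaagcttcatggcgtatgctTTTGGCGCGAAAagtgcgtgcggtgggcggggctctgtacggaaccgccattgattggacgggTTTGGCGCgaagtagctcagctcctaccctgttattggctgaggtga
Mcm5: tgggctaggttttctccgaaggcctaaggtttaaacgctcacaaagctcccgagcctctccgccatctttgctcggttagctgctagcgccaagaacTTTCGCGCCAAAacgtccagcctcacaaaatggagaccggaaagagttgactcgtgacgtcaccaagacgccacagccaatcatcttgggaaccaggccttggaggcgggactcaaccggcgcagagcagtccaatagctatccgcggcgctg
Mcm7: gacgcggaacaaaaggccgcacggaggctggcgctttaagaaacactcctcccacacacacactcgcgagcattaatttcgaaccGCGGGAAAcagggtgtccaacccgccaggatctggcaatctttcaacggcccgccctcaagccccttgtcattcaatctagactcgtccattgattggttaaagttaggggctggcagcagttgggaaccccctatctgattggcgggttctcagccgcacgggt
Counted from the start site, the first match began at −110 in Mcm6, −153 in Mcm5 and −165 in Mcm7. Mcm6 held 3 matches, Mcm5 held 2 and Mcm7 held 1, overlapping ones counted separately; a match is a description of letters and shows no binding.

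Chromosome segregation, repair and nucleotide supply moved in the same direction. Of 38 centromere and kinetochore genes 34 rose, with a median of 2.18. Spc25, which ties chromosomes to spindle fibers, stood at 0.758, 0.539 and 0.566 FPKM in normal brain and 31.8, 16, 25.3 and 22.4 FPKM in the tumors, a log2 change of 3.90 ± 0.19 (SE) with an adjusted p of 3.38e-07. Knstrn rose by 3.74 ± 0.28, the centromeric histone Cenpa by 3.67 ± 0.40 and Ndc80 by 3.46 ± 0.35. The exception was Zwint, which fell by 1.43 ± 0.23 from 842, 673 and 541 FPKM in normal brain to 194, 312, 269 and 242 FPKM in NRAS 1 to 4. Of 18 condensin and cohesin genes 12 rose, led by Ncaph (3.60 ± 0.28) and Smc4 (3.26 ± 0.38), and 1, Pds5b, fell (−0.50 ± 0.18), a call lost without normal 2, normal 3, NRAS 2, NRAS 3 or NRAS 4. Of 30 genes of homologous recombination and the Fanconi pathway 22 rose and 0 fell, among them Rad54l (2.48 ± 0.34). Nucleotide synthesis had 19 genes higher and 4 lower of 29. The paired subunits of ribonucleotide reductase went apart: Rrm2, made in dividing cells, rose by 4.65 ± 0.30, and Rrm2b, the p53-induced form of resting cells, fell by 0.85 ± 0.18. Thymidine kinase Tk1 rose by 3.92 ± 0.32 and the purine salvage enzyme Hprt fell by 0.59 ± 0.16. Without normal 3, 2 nucleotide genes fell. Only 17 of 77 histone genes in the table passed the filter on low values, so the replication-dependent histones, whose transcripts mostly lack poly(A) tails, are hardly covered; the variant genes H2afz and H2afx rose by 1.55 ± 0.28 and 1.40 ± 0.26.

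Kinesins, of which 33 were tested, had 13 higher and 10 lower, near the background. Among mitotic motors, Kif2c rose by 3.71 ± 0.36, Kif22 by 3.62 ± 0.35, Kif20a by 3.61 ± 0.44 and Kif11 by 2.99 ± 0.39. Among motors of axonal transport, Kif5a fell by 2.57 ± 0.64, Kif5c by 2.16 ± 0.47, Kif21a by 1.90 ± 0.34 and Kif1a by 1.82 ± 0.29. In FPKM, Kif5a went from 405, 515 and 603 in normal 1 to 3 to 32.6, 209, 72.8 and 96.3 in NRAS 1 to 4, and NRAS 2 kept the most.

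Cytosolic ribosomal proteins and their assembly factors rose nearly throughout. Of 79 cytosolic ribosomal proteins, all tested, 78 rose and 0 fell, 67 by at least 2-fold, and the median was 1.38. Rplp0, a protein of the ribosomal stalk, stood at 184, 153 and 162 FPKM in normal brain and 1342, 597, 877 and 1198 FPKM in the tumors, a log2 change of 2.53 ± 0.28 (SE) with an adjusted p of 5.85e-05. Rpl18 rose by 1.89 ± 0.26 and Rps12 by 1.85 ± 0.26. Ribosomal protein genes have many processed copies in the genome, and how reads were divided among copies was not given in the sources used here, so single levels are uncertain. Ribosome biogenesis factors rose in 37 of 42, with Ddx21 (2.2 ± 0.25), fibrillarin Fbl (1.85 ± 0.25) and nucleophosmin Npm1 (1.79 ± 0.24). Of mitochondrial ribosomal proteins a share near the background, 27 of 77 (35.1%), rose, 1 by at least 2-fold, with a median of 0.26. That 1 gene, Mrps6, rose by 1.90 ± 0.19. Its family count was 12 without normal 2, 16 without normal 3 and 14 within titles 1834 to 1838.

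Among 62 translation factors 44 rose and 3 fell. Eif4ebp1, which holds back cap-dependent initiation until mTOR inactivates it, stood at 2.58, 3.56 and 2.46 FPKM in normal brain and 167, 81.6, 106 and 97.8 FPKM in the tumors, a log2 change of 4.84 ± 0.24 (SE) with an adjusted p of 3.38e-07. The elongation factor forms went apart: Eef1a1, the general form, rose by 1.53 ± 0.25, and Eef1a2, the form of neurons and muscle, fell by 2.02 ± 0.57. The other genes that fell, Eif5a2 (−1.54 ± 0.18) and Eif4a2 (−0.92 ± 0.18), are also second forms of a general factor. Of 20 cytosolic tRNA synthetases 15 rose and 0 fell, with Rars (1.49 ± 0.20) and Tars (1.41 ± 0.20) at the top. SR and hnRNP splicing factors rose in 20 of 31, mostly by less than 2-fold, with Hnrnpf (2.32 ± 0.21) apart from the rest, and Srsf12 fell by 1.52 ± 0.28. Nucleoporins rose in 22 of 29 and 0 fell, or 1 without NRAS 1. Within titles 1834 to 1838 the counts of members that rose were 28 translation factors, 13 splicing factors and 14 nucleoporins.

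Protein breakdown and folding showed a contrast within the proteasome. Of 34 constitutive subunits 19 rose, 0 by at least 2-fold, with a median of 0.47; that count was 9 without normal 2, 12 without normal 3 and 1 within titles 1834 to 1838. All 5 immunoproteasome genes rose. Psmb9, the interferon-induced catalytic subunit, stood at 1.82, 0.776 and 1.16 FPKM in normal brain and 176, 25.2, 307 and 155 FPKM in NRAS 1 to 4, a log2 change of 5.79 ± 0.81 (SE) with an adjusted p of 0.000228. Psmb8 rose by 5.76 ± 0.79, the activators Psme1 and Psme2 by 2.30 ± 0.46 and 2.52 ± 0.44, and Psmb10 by 1.69 ± 0.43. All 4 tumors lay above all normal brains for Psmb9, with NRAS 2 the lowest. Heat shock proteins and chaperonins were near the background, with 26 higher (34.2%) and 23 lower (30.3%) of 76. Hspb1 and Hspb8, small chaperones, rose by 1.69 ± 0.42 and 1.72 ± 0.34. Hspa12a and the clathrin uncoating factor Dnajc6 of synapses changed by −2.67 ± 0.47 and −2.41 ± 0.60. Hspa8, the member of highest level, changed by 0.079 ± 0.19, which did not pass. Genes of folding in the endoplasmic reticulum rose in 30 of 41, with the retrieval receptor Kdelr3 (2.82 ± 0.24), the collagen chaperone Fkbp10 (2.59 ± 0.19) and the disulfide isomerase Pdia4 (1.80 ± 0.18).

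Genes of energy metabolism moved in both directions. Of 30 genes of glycolysis and glucose uptake 8 rose (26.7%) and 10 fell (33.3%), near the background. Hk2, a hexokinase held on mitochondria, stood at 0.874, 0.709 and 0.454 FPKM in normal brain and 13.9, 10.8, 28.9 and 17 FPKM in the tumors, a log2 change of 3.39 ± 0.28 (SE) with an adjusted p of 8.01e-06. Hk3 of leukocytes rose by 3.10 ± 0.73, the lactate exporter Slc16a3 by 2.92 ± 0.46 and the regulator Pfkfb3 by 1.44 ± 0.16. Forms typical of nerve tissue fell: neuron enolase Eno2 by 2.04 ± 0.50, Aldoc by 1.70 ± 0.48 and Ldhb by 1.27 ± 0.24. In FPKM, Eno2 went from 425, 371 and 409 to 51.2, 196, 87.4 and 100. Pentose phosphate genes rose in 6 of 8 and 0 fell, with the NADPH-producing enzymes Pgd (1.15 ± 0.18) and G6pdx (0.96 ± 0.19). In the tricarboxylic acid cycle 4 rose and 14 fell of 28, with Mdh1 (−1.52 ± 0.25) and Pdk2 (−1.48 ± 0.27) among those that fell and Idh2 (0.86 ± 0.27) among those that rose. Nuclear genes of oxidative phosphorylation had 4 higher and 26 lower of 81, with a median of −0.30, so their share lower was near the background and their share higher far under it. That count of 26 was unstable: 5 without normal 1, 12 without normal 3, 11 without NRAS 1, 13 without NRAS 3, 11 without NRAS 4 and 7 within titles 1834 to 1838. The largest change in the group was that of Cox6b2, a form of a complex IV subunit known from testis, which rose by 2.61 ± 0.22.

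Supply pathways for growth and for defense against oxidation were raised in selected genes. Serine and one-carbon metabolism had 12 of 21 genes higher and 1, Mat2b, lower (−0.83 ± 0.16); the mitochondrial folate enzymes Mthfd2 (3.06 ± 0.23), Shmt2 (2.95 ± 0.24) and Aldh1l2 (2.39 ± 0.38) stood at the top. Of 35 glutathione and NRF2 target genes 15 rose and 5 fell. Hmox1, which breaks down heme, stood at 3.74, 3.9 and 3.82 FPKM in normal brain and 141, 153, 157 and 119.9 FPKM in the tumors, a log2 change of 4.89 ± 0.19 (SE) with an adjusted p of 1.04e-07. Nfe2l2, which encodes NRF2 itself, rose by 2.69 ± 0.18, Prdx1 by 1.27 ± 0.21 and Prdx4 by 1.90 ± 0.35, while Mgst3 fell by 1.94 ± 0.41 and the mitochondrial dismutase Sod2 by 0.76 ± 0.16.

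The list of amino acid transporters had 7 higher and 7 lower of 30. Slc43a3 rose most, by 3.66 ± 0.39, and its place on the list by symbol does not show what it carries. The glutamine carrier Slc1a5 (2.24 ± 0.33) and Slc7a5 (1.80 ± 0.25) also rose. The neuronal glutamate carrier Slc1a1 (−1.50 ± 0.22) and astrocyte carrier Slc1a2 (−1.62 ± 0.47) fell. The other astrocyte glutamate carrier, Slc1a3, changed by 0.0057 ± 0.12, which did not pass. Of 20 genes of polyamine, arginine and tryptophan use 10 rose and 2 fell, or 1 within titles 1834 to 1838. Arg1, which turns arginine into ornithine, stood at 0.441, 0.215 and 0.169 FPKM in normal brain and 214, 75.7, 518 and 199 FPKM in NRAS 1 to 4, a log2 change of 7.32 ± 0.58 (SE) with an adjusted p of 6.81e-06. Odc1, which makes putrescine from ornithine, rose by 3.09 ± 0.23 and the polyamine acetylase Sat1 by 2.17 ± 0.27, and the neuronal nitric oxide synthase Nos1 fell by 1.92 ± 0.34. Arg1 is also 1 of 8 markers of monocytes and macrophages; the summed level of those markers ran from 9.75 to 11.8 FPKM in normal brain and from 178 to 1974 FPKM in the tumors, and its part in the metabolic change was not tested. Iron genes rose in 9 of 18, with the light ferritin chain Ftl1 (2.23 ± 0.34), ceruloplasmin Cp (2.84 ± 0.54) and the phagosomal carrier Slc11a1 (3.29 ± 0.48); the heavy ferritin chain Fth1 had a change of 0.52 ± 0.29 that did not pass.

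Genes of lipid synthesis rose less often than the background. Of 25 cholesterol synthesis genes 7 fell (28%), near the background of 30.3%, and 2 rose (8%), and of 24 genes of fatty acid synthesis and elongation 12 fell and 3 rose. Acsl6 and Acss2, which activate fatty acids and acetate, fell by 1.66 ± 0.26 and 1.18 ± 0.24. The cholesterol counts were 2 lower without normal 1 and 3 lower without normal 3, and 3 lower within titles 1834 to 1838; the count of cholesterol genes that rose was 1 without normal 2, normal 3, NRAS 3 or NRAS 4 and within those titles. Sphingolipid and galactolipid enzymes had 8 higher and 8 lower of 27, near the background. Enzymes that break sphingolipids down, Sgpl1 (2.67 ± 0.16) and Asah1 (1.27 ± 0.14), rose, and Smpd3 (−1.82 ± 0.27) and the myelin lipid enzymes Ugt8a (−1.89 ± 0.44) and Gal3st1 (−1.38 ± 0.38) fell. The count of 8 higher was 5 without normal 1 and 5 without normal 2. Among libraries numbered 1834 to 1838, 1 fatty acid gene rose and 4 sphingolipid enzymes fell.

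Families that give neurons their electrical and chemical signals fell together, and in bulk tissue fewer cells of a type and less RNA per cell cannot be told apart. The summed level of 8 neuron markers, 7 of which fell and 0 rose, was 2374 to 2837 FPKM in normal brain and 259 to 1205 FPKM in the tumors; its part in the changes below was not tested. All 16 tested subunits of GABA-A and glycine receptors fell (of 24 in the table), each by at least 2-fold, with a median of −2.07. Gabrd, a subunit of GABA-A receptors outside synapses, stood at 26.3, 21.7 and 55.3 FPKM in normal brain and 0.535, 11.6, 0.425 and 6.96 FPKM in the tumors, a log2 change of −3.09 ± 0.87 (SE) with an adjusted p of 0.00981. The fetal glycine receptor subunit Glra2 fell by 2.73 ± 0.27. Each tumor lay below each normal brain for Gabrd, with NRAS 2 closest to them. Of 17 ionotropic glutamate receptor subunits tested 15 fell and 0 rose, including the obligate NMDA subunit Grin1 (−2.15 ± 0.46) and the AMPA subunit Gria2 (−1.77 ± 0.36). Voltage-gated calcium channels fell in 18 of 21 and sodium channels in 6 of 9, with Scn4b (−3.41 ± 0.73), Scn2b (−2.53 ± 0.59) and Cacna2d2 (−2.39 ± 0.23) as examples; 0 calcium channels rose, but 1 did without NRAS 4 and 2 did within titles 1834 to 1838.

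Potassium channels fell in 56 of 73 tested and rose in 3. Kcnc2 and Kcnip2, which serve fast spiking and A-type currents, fell by 2.66 ± 0.49 and 2.72 ± 0.64, and Kcnk9 by 2.55 ± 0.41. The exception with the largest change was Kcnn4, a calcium-activated channel of leukocytes, red cells and glioma cells. Kcnn4 stood at 0.162, 0.197 and 0.0826 FPKM in normal brain and 10.4, 15.3, 15 and 14.9 FPKM in NRAS 1 to 4, a log2 change of 3.69 ± 0.16 (SE) with an adjusted p of 1.70e-07. The leak channels Kcnk6 (1.26 ± 0.23) and Kcnk5 (0.74 ± 0.20) were the others that rose. The potassium channel of astrocytes, Kcnj10, changed by −0.35 ± 0.33, which did not pass, and by −0.71 with an adjusted p of 0.00517 without NRAS 2. Metabotropic receptors fell in 46 of 58, led by the dopamine receptor Drd2 (−3.51 ± 0.41) and the serotonin receptor Htr2c (−3.37 ± 0.36). The 2 that rose were the adenosine receptor Adora3 (1.33 ± 0.27) and the cannabinoid receptor Cnr2 (1.21 ± 0.30), both known from immune cells. Of 16 nicotinic receptor genes 5 passed the filter on low values; Chrnb2 (−2.33 ± 0.32), Chrna4 (−1.38 ± 0.34) and Chrna7 (−1.32 ± 0.25) fell, and Chrnb1 rose by 1.34 ± 0.39. Chrna1 also passed with a change of 1.64 ± 0.57, though its groups overlapped and the call was lost without any 1 of normal 1, normal 2, normal 3, NRAS 1 or NRAS 4. Within titles 1834 to 1838, 34 potassium channels fell.

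Synaptic proteins followed the receptors, with exceptions outside the neuronal exocytosis set. Of 80 genes of synaptic vesicles and SNARE complexes 56 fell and 9 rose, with a median of −1.67. Syp, a vesicle membrane protein, stood at 626, 562 and 631 FPKM in normal brain and 55.4, 256, 98 and 123 FPKM in the tumors, a log2 change of −2.39 ± 0.53 (SE) with an adjusted p of 0.00259. Vamp2, the neuronal vesicle SNARE, fell by 1.83 ± 0.34, Rims1 of the active zone by 2.71 ± 0.54 and the glutamate vesicle carrier Slc17a6 by 3.30 ± 0.54. Vamp8 (1.91 ± 0.33), Stx11 (2.87 ± 0.27) and Unc13d (1.43 ± 0.33), which serve granule release in blood cells, and Syngr2 (2.38 ± 0.32) rose. Of 44 postsynaptic scaffold genes 40 fell and 1, Homer3, rose (1.68 ± 0.19); Cntnap2 (−2.73 ± 0.39), Dlg2 (−2.35 ± 0.52) and Camk2a (−2.34 ± 0.67) fell furthest. Neuropeptide genes fell in 25 of 32 and 0 rose, and 16 fell without normal 1 and 14 within titles 1834 to 1838. Of 5 genes of axonal filaments Nefl (−2.02 ± 0.46), Nefm (−2.02 ± 0.47), Nefh (−2.36 ± 0.48) and Ina (−2.18 ± 0.38) fell, and peripherin, Prph, had a change of 0.95 ± 0.46 that did not pass, except with array weights and without normal 1, at 1.30 with an adjusted p of 0.0499.

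Surface molecules of wiring fell in part. Of 63 protocadherins tested 37 fell and 2 rose; the clustered genes share exons, so reads are hard to assign to 1 isoform. Pcdhac2 fell by 1.76 ± 0.27 and Pcdh9 by 1.52 ± 0.27, and Pcdhgc3 rose by 1.45 ± 0.23. The count of 37 was 22 without normal 2 and 18 within titles 1834 to 1838, and the count of 2 was 1 without normal 2, without normal 3 or without NRAS 2. Ephrins, netrins, slits and their receptors had 8 higher and 21 lower of 39, with the netrin gene Ntn1 (2.13 ± 0.56) up and Efnb3 (−2.39 ± 0.29) and Ntng1 (−2.30 ± 0.36) down. Of 33 semaphorins, plexins and neuropilins 10 fell (30.3%), like the background, and 4 rose (12.1%), a share under the background. The plexin Plxnb2 (1.53 ± 0.16) was up and Sema6b (−1.87 ± 0.35) down.

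Glial and barrier families split by cell type. Of 24 myelin genes 21 fell and 0 rose. Mbp, a main protein of compact myelin, stood at 2754, 1350.5 and 3736 FPKM in normal 1 to 3 and 237, 825, 128 and 531 FPKM in NRAS 1 to 4, a log2 change of −2.82 ± 0.95 (SE) with an adjusted p of 0.0238. The normal brains themselves spanned a wide range for Mbp, with normal 2 the lowest and closest to NRAS 2. The myelin count was 9 without normal 1, 6 without normal 3, 13 without NRAS 1 and 9 without NRAS 3, and the call of Mbp was lost in each of those 4 settings, with changes of −2.72 with an adjusted p of 0.065, −2.50 with an adjusted p of 0.0823, −2.65 with an adjusted p of 0.0541 and −2.35 with an adjusted p of 0.0636. Genes of the motile cilium fell in 28 of 34 tested (of 65 in the table), among them the ependymal axoneme genes Drc1 (−1.78 ± 0.32) and Rsph1 (−1.69 ± 0.25). The gene that rose, Ccdc114 (0.51 ± 0.16), did not pass without normal 1, and without NRAS 4 the number that rose was 2. Choroid plexus markers summed to 831 to 2047 FPKM in normal brain and 1.12 to 38.1 FPKM in the tumors, with all 6 tested lower. Ependyma markers, of cells with motile cilia, summed to 22.7 to 30.3 FPKM and 8.26 to 16.8 FPKM, with 4 of 5 lower, and the part of either marker list in the cilium result was not tested. Connexins and pannexins fell in 7 of 11, including Gjb1 (−1.92 ± 0.47) and Panx2 (−2.11 ± 0.49), and Panx1 rose by 0.65 ± 0.19; without NRAS 1, 2 rose. Claudins and tight junction genes had 5 higher and 4 lower of 13, with F11r (0.97 ± 0.23) and Tjp1 (0.85 ± 0.21) up; 2 were lower without normal 1, without normal 3 or within titles 1834 to 1838. Of 11 aquaporins 4 were tested, and Aqp4, the water channel of astrocyte endfeet, changed by 0.20 ± 0.42, which did not pass.

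**Figure D2:**
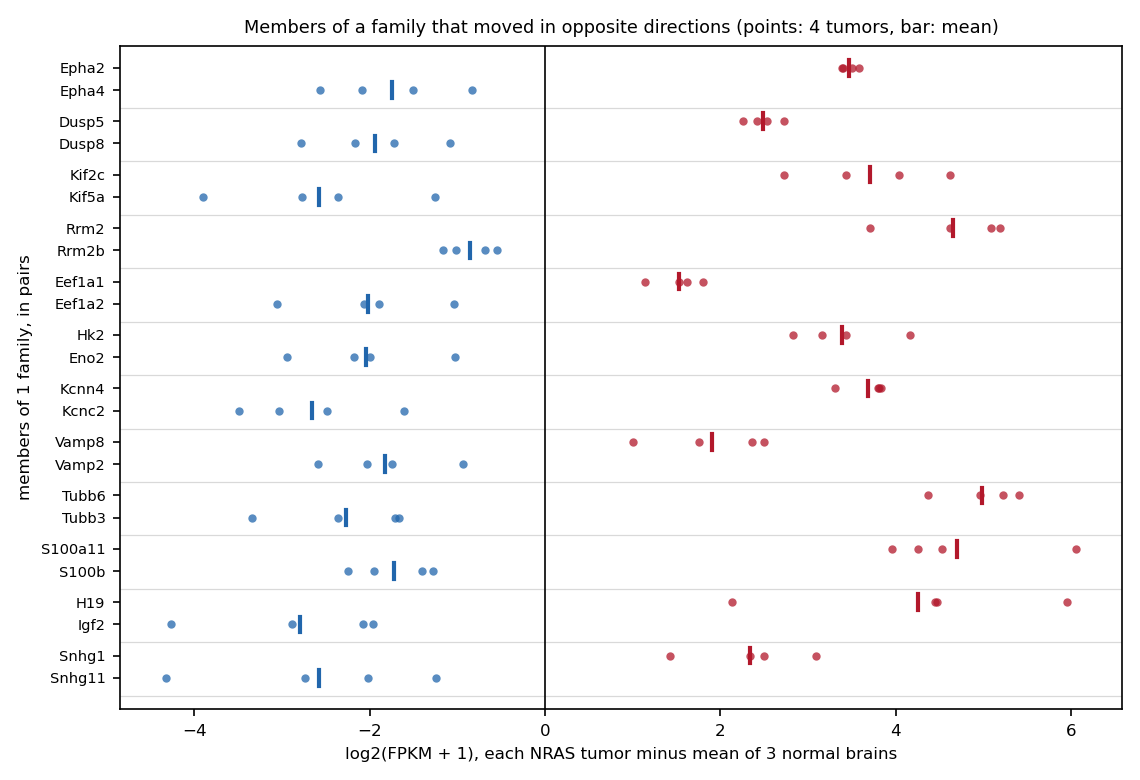
Log2(FPKM + 1) of each of 4 NRAS tumors (points) minus the mean of 3 normal brains, with the mean as a bar, for 12 pairs of genes of the same family, the risen member in red and the fallen one in blue. The pairs were chosen for their opposite changes; examples are Eef1a1 (1.53) and Eef1a2 (−2.02) and Kif2c (3.71) and Kif5a (−2.57).

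Extracellular matrix families rose in different shares. Of 34 collagens tested 10 rose and 6 fell, near the background, whereas 14 of 19 collagen-modifying enzymes rose and 0 fell, apart from 1 without NRAS 4 and 1 within titles 1834 to 1838. Plod2, a lysyl hydroxylase, rose by 3.39 ± 0.21, the collagen chaperone Serpinh1 by 3.03 ± 0.32 and Col18a1, a basement membrane chain, by 3.36 ± 0.20. Col25a1, a transmembrane collagen of neurons, fell by 2.54 ± 0.24. Of 22 genes of laminins and basement membrane 12 rose, with fibronectin Fn1 (2.90 ± 0.24), Fbln2 (3.64 ± 0.47) and Lamb1 (2.09 ± 0.37). Timp1, an inhibitor of matrix metalloproteinases, stood at 0.301, 0.687 and 0.751 FPKM in normal brain and 245, 104, 271 and 158 FPKM in the tumors, a log2 change of 6.87 ± 0.30 (SE) with an adjusted p of 1.70e-07. Of its family of 19, 9 rose and 4 fell: the membrane protease Mmp14 rose by 3.06 ± 0.31 and Mmp19 by 2.67 ± 0.20, and Timp2 fell by 1.13 ± 0.25. That count of 9 was 5 without normal 1, 5 without normal 2 and 5 without normal 3. ADAM and ADAMTS proteases had 11 higher and 11 lower of 29, with Adamts14 (3.30 ± 0.35) and the leukocyte protease Adam8 (2.61 ± 0.50) up and the synaptic adhesion genes Adam22 (−1.88 ± 0.25) and Adam23 (−2.26 ± 0.32) down. Serpins rose in 12 of 20, led by the complement inhibitor Serping1 (3.61 ± 0.79), and neuroserpin, Serpini1, fell by 2.03 ± 0.60. Proteoglycans and hyaluronan genes had 17 higher and 8 lower of 37, with serglycin Srgn (4.27 ± 0.43), syndecan Sdc1 (3.86 ± 0.25) and the hyaluronan synthase Has2 (1.94 ± 0.47) up and Hapln2 (−2.07 ± 0.52) down; 5 were lower within titles 1834 to 1838. Growth factor carriers of the IGFBP list rose in 5 of 10, and Igfbp2 changed by 3.30 ± 0.57.

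Small calcium- and lipid-binding families rose with large changes. S100 genes rose in 9 of 12. S100a11 stood at 14.8, 13.2 and 11.6 FPKM in normal brain and 325, 269, 219.6 and 944 FPKM in NRAS 1 to 4, a log2 change of 4.70 ± 0.43 (SE) with an adjusted p of 1.71e-05. Its annexin partners rose too: 6 of 9 annexins were higher and 0 lower, with Anxa2 (4.42 ± 0.40) and Anxa3 (3.46 ± 0.27) first. S100b, the form of astrocytes and oligodendrocytes, was the S100 gene that fell, by 1.72 ± 0.38. Galectins rose in 6 of 8, with Lgals3 (5.81 ± 0.26) and Lgals1 (5.32 ± 0.38) at the top; Lgals7 was listed at 0 in all normal brains and at 9.85, 0.552, 2 and 1.01 FPKM in the tumors. Cathepsins rose in 10 of 13 and 0 fell in the fit of all libraries, with 1 fallen without NRAS 2; Ctsc (4.51 ± 0.43), Ctss (3.87 ± 0.37) and Ctsz (3.38 ± 0.28) led.

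The cell skeleton changed by isotype. Of 16 tubulins 6 rose and 5 fell, near the background. Tubb6 stood at 3.2, 3.21 and 3.32 FPKM in normal brain and 179, 86.6, 132 and 157 FPKM in the tumors, a log2 change of 4.99 ± 0.22 (SE) with an adjusted p of 1.70e-07. The neuronal isotype Tubb3 fell by 2.27 ± 0.44, Tuba4a by 2.14 ± 0.61 and Tubb4a by 1.93 ± 0.44, and the general isotype Tubb5 rose by 0.74 ± 0.22. Tubulin genes are close in sequence, so reads may have been divided between isotypes. Among other filaments, vimentin Vim rose by 5.23 ± 0.24, nestin Nes by 3.66 ± 0.13, lamin Lmnb1 by 2.92 ± 0.29 and Gfap by 2.33 ± 0.49, and Synm fell by 1.65 ± 0.31; 6 of 15 rose and 7 fell, or 4 without normal 2. Cadherins had 2 higher and 8 lower of 17: Cdh1 (1.22 ± 0.31) and Cdh2 (0.55 ± 0.14) rose, and the neuronal cadherins Cdh8 (−2.28 ± 0.44) and Cdh18 (−2.15 ± 0.38) fell, with 5 lower without normal 3. Within titles 1834 to 1838, 5 cadherins fell, 1 rose, and 3 tubulins rose.

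Immune families rose far above the background of 32.0%. Toll-like receptors and adaptors rose in 19 of 21, NOD-like receptors and inflammasome genes in 15 of 18, Fc receptors and adaptors in 11 of 12, interleukin receptors in 32 of 42, TNF superfamily genes in 22 of 29, complement genes in 21 of 25, chemokine receptors in 8 of 12 and immunoglobulin-type inhibitory and activating receptors in 27 of 31. Many members were outside the test for low values, such as 49 of 72 C-type lectin genes, of which 14 of the 23 tested rose. C3, the hub of complement, stood at 0.521, 0.423 and 0.71 FPKM in normal brain and 73.1, 11.7, 232 and 129.7 FPKM in NRAS 1 to 4, a log2 change of 5.56 ± 0.89 (SE) with an adjusted p of 0.000468. Its activating protease Cfb rose by 4.39 ± 0.70 and C4b by 3.88 ± 0.39, while the complement regulator Cd59a fell by 1.38 ± 0.38 and clusterin, Clu, changed by −0.58 ± 0.42, which did not pass. All 4 tumors were above all normal brains for C3, with NRAS 2 lowest. Among receptors, Fcgr4 rose by 4.84 ± 0.57 and Fcgr2b by 4.20 ± 0.42, both of which bind IgG; the adaptor Tyrobp rose by 2.84 ± 0.43, Tlr2 by 2.60 ± 0.36, the lipopolysaccharide coreceptor Cd14 by 2.74 ± 0.30, the MHC class I activator Nlrc5 by 4.23 ± 0.74 and the caspases Casp1 and Casp4 by 3.29 ± 0.47 and 3.67 ± 0.54. Receptors of the common gamma chain, Il2rg (3.91 ± 0.60) and Il2rb (3.35 ± 0.67), and the TWEAK receptor Tnfrsf12a (4.05 ± 0.29) rose, and the neuronal relatives Il1rapl1 (−1.34 ± 0.21) and Il1rapl2 (−1.23 ± 0.17) were the interleukin receptor genes that fell. Eicosanoid genes rose in 13 of 22, with Ptges (2.58 ± 0.33) for prostaglandin E2 and Alox5ap (2.54 ± 0.32) for leukotrienes, and prostaglandin D synthase Ptgds fell by 2.78 ± 0.68.

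Markers of several blood-borne cell types moved with these families, and their part in the counts was not tested. Of 8 monocyte and macrophage markers 7 rose, of 6 tested T cell markers 5 rose, from sums of 1.56 to 6.96 FPKM in normal brain to 5.03 to 132 FPKM in the tumors, and Cd3e, Cd3d and Cd8b1 were at 0 in all 3 normal brains. All 4 tested neutrophil markers and all 3 tested NK cell markers rose. Of tested markers 1 of 2 for B cells and 1 of 3 for dendritic cells rose. Of 5 mast cell markers 4 rose and 1 fell, and of 4 erythrocyte markers 0 passed. Of 8 markers of resident microglia 4 rose and 1 fell, with sums of 144 to 172 FPKM and 246 to 426 FPKM. In counts of fallen members, 0 Fc receptor genes became 1 without NRAS 2, the fallen TNF superfamily gene, Ngfr (−0.75 ± 0.22), did not pass without normal 2, and the fallen immunoglobulin-type receptor, Cd200 (−0.81 ± 0.26), did not pass without normal 1, normal 2 or NRAS 1, and 2 such receptors fell without NRAS 3 and 3 within titles 1834 to 1838. Eicosanoid genes with a fall numbered 2 without NRAS 3.

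Interferon-induced genes rose nearly throughout. All 23 interferon-induced GTPases tested (of 26 in the table) rose at least 2-fold, with a median of 4.16, and 37 of 38 antiviral effector genes rose, with a median of 2.53. Igtp, a GTPase that acts on vacuoles of intracellular parasites, stood at 1.79, 0.947 and 1.03 FPKM in normal brain and 119, 54, 742 and 212 FPKM in NRAS 1 to 4, a log2 change of 6.34 ± 1.04 (SE) with an adjusted p of 0.000516. Gbp2 rose by 5.85 ± 0.97, Irgm1 by 5.35 ± 0.67, the membrane restriction factor Ifitm3 by 5.46 ± 0.37, the Z-nucleic acid sensor Zbp1 by 5.44 ± 0.81 and the tether Bst2 by 5.03 ± 0.75. Several GTPase genes of the Gbp and Irg families are near copies of each other, so single levels are uncertain. NRAS 3 was the highest tumor for Igtp and NRAS 2 the lowest. The factors that drive such genes rose as well. Of 32 genes of the IRF, STAT, NF-kB and C/EBP families 29 were higher and 0 lower, with Irf1 (4.74 ± 0.69) and Irf7 (4.28 ± 0.79). Batf2, a member of the AP-1 list, rose by 3.84 ± 0.82. Because these genes moved together, the same 250-base windows were searched on both strands for the interferon-stimulated response element, written as GAAA, 2 bases of any kind and GAAA. It was found in 10 of 12 GTPase genes with a window (83.3%) and in 11 of 29 antiviral genes (37.9%), against 372 of 11442 tested genes (3.25%) and 936 of 27025 genes in all (3.46%). The other lists searched held it in 3 of 25 IRF, STAT, NF-kB and C/EBP genes (12%), 0 of 5 immunoproteasome genes, 3 of 23 recombination genes (13%), 6 of 58 cytosolic ribosomal protein genes (10.3%), 2 of 37 replication genes (5.41%), 3 of 53 potassium channels (5.66%), 1 of 25 nucleotide synthesis genes (4%), 0 of 33 kinetochore genes and 0 of 12 GABA-A and glycine receptor genes. No match says only that the letters are not in those windows. The following are members of large increase with a match, printed 5′ to 3′ up to the start site with matches in capitals, at chr11:58199306-58199555 and chr3:142620413-142620662 on the plus strand and chr8:71537473-71537722 and chr4:156200819-156201068 on the minus strand.
Igtp: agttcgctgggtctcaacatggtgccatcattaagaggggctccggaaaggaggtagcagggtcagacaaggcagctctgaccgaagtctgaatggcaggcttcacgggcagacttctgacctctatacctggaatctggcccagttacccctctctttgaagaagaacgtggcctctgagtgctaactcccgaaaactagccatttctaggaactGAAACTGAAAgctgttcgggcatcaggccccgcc
Gbp2: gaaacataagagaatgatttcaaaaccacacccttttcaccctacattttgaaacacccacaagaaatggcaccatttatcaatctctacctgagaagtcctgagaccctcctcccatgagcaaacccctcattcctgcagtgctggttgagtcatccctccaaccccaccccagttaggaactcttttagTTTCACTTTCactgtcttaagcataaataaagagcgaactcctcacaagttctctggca
Bst2: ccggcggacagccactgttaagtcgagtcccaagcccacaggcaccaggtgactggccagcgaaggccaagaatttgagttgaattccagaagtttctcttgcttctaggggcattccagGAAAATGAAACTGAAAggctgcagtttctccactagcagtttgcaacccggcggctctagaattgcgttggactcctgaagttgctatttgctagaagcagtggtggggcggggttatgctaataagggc
Isg15: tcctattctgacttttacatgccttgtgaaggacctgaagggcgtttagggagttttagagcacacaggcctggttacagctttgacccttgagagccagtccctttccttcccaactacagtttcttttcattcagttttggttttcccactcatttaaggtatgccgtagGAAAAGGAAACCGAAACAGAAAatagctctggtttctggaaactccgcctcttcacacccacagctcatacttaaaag
Counted from the start site, the first match began at −34 in Igtp, −59 in Gbp2, −130 in Bst2 and −78 in Isg15. Igtp and Gbp2 held 1 match each, Bst2 2 overlapping matches and Isg15 3.

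**Figure D3:**
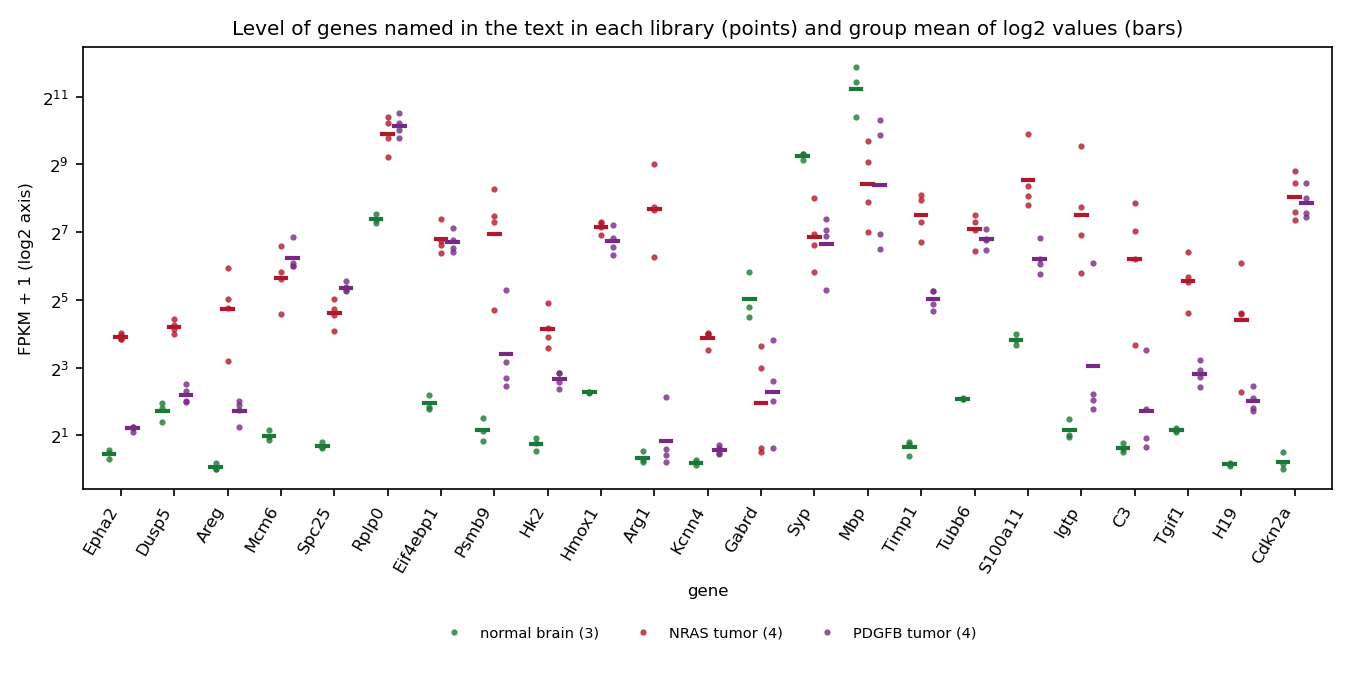
FPKM + 1 on a log2 axis of 23 genes named in the text, in each normal brain (green, 3), NRAS tumor (red, 4) and PDGFB tumor (purple, 4), with group means of log2 values as bars. For Mcm6 and Spc25 both tumor types lie above the normal brains, whereas for Arg1 and C3 all NRAS tumors lie above both other groups, and for Psmb9 and Igtp 1 PDGFB tumor lies above NRAS 2.

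Transcription factor families changed in different ways. HOX genes, silent in forebrain, were below the filter in all 39 cases. Of 111 other homeobox genes 53 were tested, with 6 higher and 20 lower: Prrx1 (3.47 ± 0.33) and Emx2 (1.83 ± 0.34) rose. The forebrain and interneuron factors Six3 (−2.57 ± 0.43) and Dlx6 (−2.18 ± 0.29) fell, as did Otx2 (−2.13 ± 0.28), which is on the list of choroid plexus markers. SOX factors rose in 6 of 16 (37.5%), near the background, and fell in 2 (12.5%). The stem cell factors Sox3 (3.10 ± 0.57), Sox4 (1.90 ± 0.28) and Sox2 (1.46 ± 0.27) were among those that rose. The count of 2 was 0 without normal 2 and within titles 1834 to 1838. It was 1 without normal 1, normal 3, NRAS 1, NRAS 3 or NRAS 4. Basic helix-loop-helix factors rose in 17 of 38 and fell in 6, or 10 without NRAS 2; Myc (3.52 ± 0.30) and Tcf3 (1.72 ± 0.22) rose and Neurod1 (−1.67 ± 0.33) and Id4 (−1.69 ± 0.47) fell. Foxm1, which drives mitotic genes, rose by 3.62 ± 0.32, and Foxp2 fell by 2.11 ± 0.17. Among 24 Kruppel-like and EGR factors 9 rose and 9 fell, with Klf4 (1.73 ± 0.35) up and Klf15 (−0.83 ± 0.25) down. Nuclear receptors had 7 higher and 12 lower of 35: the vitamin D receptor Vdr rose by 2.05 ± 0.35, and the thyroid hormone receptor Thra and retinoid receptor Rxrg fell by 1.85 ± 0.25 and 2.48 ± 0.34. Zinc finger proteins named Zfp, 330 of them tested, were mostly flat, with 52 higher (6 by at least 2-fold) and 90 lower (11 by at least 2-fold). The largest increases among them belonged to the RNA-binding relatives Zfp36 (2.63 ± 0.28) and Zfp36l2 (2.14 ± 0.25), which are not DNA-binding repressors. The Zfp counts were 30 higher without normal 3, and 20 higher and 42 lower within titles 1834 to 1838, where 5 Kruppel-like factors fell and 3 nuclear receptors rose.

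Of 98 genes of Polycomb, DNA methylation and histone modification 34 rose (34.7%), near the background, and 17 fell (17.3%), or 10 within titles 1834 to 1838. Hmga2 rose from 0.0359, 0.105 and 0.128 FPKM in normal brain to 102, 61.5, 71.8 and 162 FPKM in the tumors, a log2 change of 6.42 ± 0.30 (SE) with an adjusted p of 2.32e-07. The methylation maintenance factor Uhrf1 rose by 4.52 ± 0.34, the helicase Hells by 3.22 ± 0.39 and Hmgb2 by 4.31 ± 0.44. Hdac11, a deacetylase rich in brain, fell by 2.47 ± 0.47, and Cbx6 by 1.31 ± 0.27. Every tumor lay above every normal brain for Hmga2.

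Developmental pathways rose in selected members. The TGF-beta and BMP list had 26 higher and 17 lower of 61. Tgif1, a corepressor of SMAD proteins, stood at 1.25, 1.33 and 1.14 FPKM in normal brain and 45, 23.4, 50.2 and 83.9 FPKM in the tumors, a log2 change of 4.39 ± 0.34 (SE) with an adjusted p of 6.27e-06. Tgfbi, a matrix protein induced by TGF-beta, rose by 4.35 ± 0.51, the stress cytokine Gdf15 by 3.21 ± 0.32 and Ltbp1, which stores TGF-beta, by 3.13 ± 0.29. Hippo pathway genes rose in 13 of 26, including the coactivators Wwtr1 (3.06 ± 0.27), also called TAZ, and Yap1 (1.31 ± 0.28) and the partner Tead2 (3.04 ± 0.49). Of 31 Notch genes 15 rose and 7 fell, with Notch1 (1.85 ± 0.27) and Jag1 (1.89 ± 0.28) up and the target Hes5 (−1.75 ± 0.36) down. WNT genes had 13 higher and 15 lower of 50, near the background, with the receptor Fzd1 (2.29 ± 0.36) up and Wnt4 (−1.52 ± 0.43) down; 9 were lower without normal 3. Within titles 1834 to 1838, 8 WNT genes and 4 Notch genes fell.

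Imprinted genes fell in 23 of 33 and rose in 3, with a median of −1.42. The neighboring genes H19 and Igf2 went apart. H19 stood at 0.102, 0.0663 and 0.139 FPKM in normal brain and 67.4, 3.83, 23.1 and 23.5 FPKM in NRAS 1 to 4, a log2 change of 4.25 ± 0.65 (SE) with an adjusted p of 0.000366. Igf2 fell from 39.2, 59.3 and 40 FPKM to 1.41, 10.9, 5.28 and 9.95 FPKM, a log2 change of −2.80 ± 0.58 (SE) with an adjusted p of 0.00193. No tumor overlapped a normal brain for H19 or Igf2. Peg3 (−2.85 ± 0.51), Meg3 (−2.37 ± 0.39) and Nap1l5 (−2.33 ± 0.36) fell, and the receptor Igf2r rose by 0.99 ± 0.29. Host genes of small nucleolar RNAs rose in 10 of 16, led by Snhg1 (2.34 ± 0.31), while Snhg11, a neuronal transcript, fell by 2.58 ± 0.71 and was 1 of 2 that fell without NRAS 1. Among named long noncoding RNAs, the oncogenic cluster host Mir17hg (1.98 ± 0.31) and Neat1 (1.53 ± 0.39) rose and Miat (−2.26 ± 0.64) fell.

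Genes of cell death, arrest and daily rhythm also differed. Of 35 BCL2 family and caspase genes 23 rose and 3 fell: Birc5, which also acts in mitosis, rose by 4.29 ± 0.33, the p53 target Bax by 1.65 ± 0.20 and Mcl1 by 1.78 ± 0.15, and Bcl2l2 and Hrk fell by 1.27 ± 0.21 and 1.95 ± 0.33. CDK inhibitors rose in 6 of 8, with Cdkn2b (5.32 ± 0.40), Cdkn1a (4.36 ± 0.39) and Cdkn2c (3.26 ± 0.25) next to Cdkn2a; Cdkn2d fell by 0.42 ± 0.16, a call lost without any 1 of normal 1, normal 2, normal 3, NRAS 3 or NRAS 4. Clock genes had 3 higher and 9 lower of 22. The output factors Hlf and Tef fell by 2.05 ± 0.56 and 1.42 ± 0.28 and the repressor Cry2 by 1.47 ± 0.27, and the time of day of sampling was not given. The 3 that rose were 1 without normal 2 and 5 without NRAS 2, and the 9 that fell were 5 within titles 1834 to 1838. Autophagy and lysosome genes had 19 higher and 30 lower of 65: the lysosomal enzymes Gusb (2.33 ± 0.22) and Npc2 (1.99 ± 0.33) rose, and subunits of the proton pump, Atp6v1g2 (−2.19 ± 0.58), Atp6v0a1 (−1.72 ± 0.29) and Atp6v1a (−1.26 ± 0.19), fell with the autophagy factor Gabarapl1 (−1.54 ± 0.28). The count of 19 was 9 within titles 1834 to 1838. Of 254 solute carriers 64 rose and 95 fell, and of 35 ABC transporters 11 rose and 16 fell, with the cholesterol exporter Abca1 (2.63 ± 0.33) up and Abca2 (−1.72 ± 0.25) down; 7 ABC genes rose without normal 1, and 5 rose and 10 fell within titles 1834 to 1838.

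The 4 tumors varied more among themselves than the normal brains did. The median SD of log2 values was 0.288 among NRAS tumors, 0.143 among normal brains and 0.240 among PDGFB tumors. NRAS 2 lay closest to normal brain: its correlations with the normal brains across genes were 0.853 to 0.860, against 0.673 to 0.715 for the other 3 tumors, where genes are not independent replicates. In synaptic vesicle genes the median differences from the normal mean were −2.24, −0.92, −1.58 and −1.74 in NRAS 1 to 4. For DNA replication they were 2.95, 1.52, 2.46 and 2.17, and for interferon-induced GTPases 3.61, 2.36, 6.01 and 4.64. So NRAS 2 was nearest to normal in all 3 of these lists and NRAS 3 farthest in the GTPases. Variability was ranked only among genes called changed against normal brain with a mean of at least 20 FPKM in NRAS tumors. Of the 10 that varied most 5 were granzymes, proteases of cytotoxic lymphocytes, with Gzmf at 31.2, 0, 5.43 and 212 FPKM in NRAS 1 to 4. The others included the alcohol dehydrogenase Adh7 at 2, 7.92, 0.571 and 147 FPKM, Chil3, a macrophage lectin, at 196, 2.82, 127 and 14 FPKM, and the chemokine Ccl24 at 22.4, 20.9, 192 and 1.32 FPKM. The last were the iron-scavenging lipocalin Lcn2 at 222, 11.3, 666 and 73.5 FPKM and the interferon-induced GTPase Gbp8 at 12.6, 2.63, 166 and 50.2 FPKM. NRAS 4 was highest for Gzmf and Adh7, NRAS 1 for Chil3 and NRAS 3 for Ccl24, Lcn2 and Gbp8, and the granzymes Gzmc to Gzmg are close copies of each other. The least variable of the genes ranked included the kinase Mapkapk5, at 21.3, 21.4, 22 and 21.7 FPKM, the P450 reductase Por and the dynactin subunit Actr1a. The call of Mapkapk5 against normal brain was lost without normal 1, normal 2 or NRAS 3 and within titles 1834 to 1838. That of Gzmf was lost without normal 1, normal 2, normal 3 or NRAS 1 and within those titles. For Adh7 it was lost without normal 1, normal 2, normal 3 or NRAS 2, and for Chil3 within those titles. The calls of Ccl24, Lcn2 and Gbp8 held in all 21 alternatives.

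**Figure D4:**
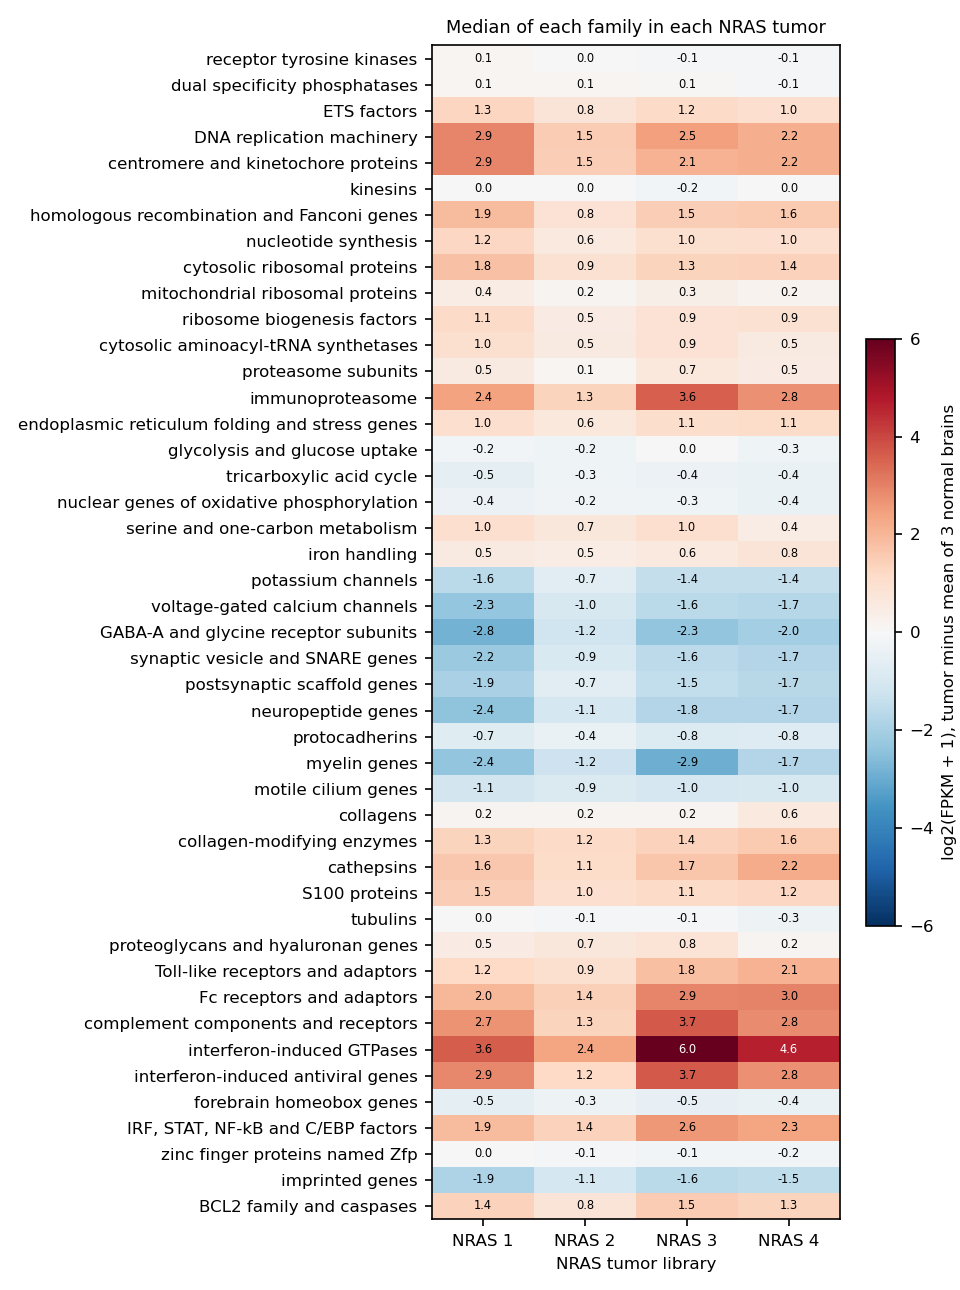
Median over tested members of log2(FPKM + 1) in each of 4 NRAS tumors minus the mean of 3 normal brains, for 45 families (color and number, log2 scale). The column of NRAS 2 is the palest in most families, and interferon-induced GTPases are strongest in NRAS 3.

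NRAS tumors were set against PDGFB tumors, which share large T, to see which family changes differ between drivers; both comparisons use the same 4 NRAS libraries. Of 14491 genes 2078 (14.3%) were higher in NRAS tumors and 1774 (12.2%) lower. The lower count was 1154 without NRAS 4 and 1033 without PDGFB 3, and without both NRAS 3 and NRAS 4 the counts were 1103 higher and 467 lower. Immune families made up the clearest difference: 21 of 23 interferon-induced GTPases, 32 of 38 antiviral genes, all 5 immunoproteasome genes, 20 of 25 complement genes, 26 of 31 immunoglobulin-type receptors and 22 of 32 IRF, STAT, NF-kB and C/EBP factors were higher in NRAS tumors. Igtp stood at 2.4 to 67 FPKM in the PDGFB tumors, a log2 difference of 4.46 ± 0.96 with an adjusted p of 0.00704, Psmb9 at 4.46 to 38.2 FPKM with a difference of 3.53 ± 0.75 and C3 at 0.573 to 10.4 FPKM with 4.48 ± 0.83. The antiviral count was 18 without PDGFB 3 and the immunoproteasome count 3 without PDGFB 1 or without PDGFB 3. Arg1 showed the widest gap of the genes with per-library values here, at 0.154 to 3.39 FPKM in PDGFB tumors and a difference of 6.83 ± 0.54. For C3 and Arg1 no PDGFB tumor reached the lowest NRAS tumor, whereas for Igtp and Psmb9 the highest PDGFB tumor stood above NRAS 2.

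Outside the immune lists, the 2 models differed in selected families, and the part of leukocytes in these differences was not tested. EGF receptor ligands were higher in NRAS tumors, with differences of 3.02 ± 0.45 for Areg, 2.50 ± 0.21 for Hbegf and 3.38 ± 0.26 for Ereg, as were Epha2 (2.71 ± 0.12), Met (2.46 ± 0.29), Dusp4 (1.48 ± 0.25) and Dusp5 (2.0 ± 0.18). Dusp6 (−0.028 ± 0.19) and Spry4 (−0.35 ± 0.20) did not pass, though Spry4 did without NRAS 1 at −0.54 with an adjusted p of 0.0276, and Spry1 (−0.97 ± 0.25) and Etv4 (−1.17 ± 0.23) were lower in NRAS tumors. Pdgfra, the receptor of PDGF, rose in NRAS tumors over normal brain by 1.95 ± 0.36 and was lower than in PDGFB tumors by a difference of −1.99 ± 0.33. Annexins (6 of 9), S100 genes (6 of 12), galectins (7 of 8), cathepsins (9 of 13), iron genes (10 of 18) and polyamine and arginine genes (9 of 20) were higher in NRAS tumors, among them S100a11 (2.31 ± 0.39), Anxa2 (2.60 ± 0.37), Lgals3 (3.51 ± 0.24) and Odc1 (1.42 ± 0.22). The galectin count was 4 without NRAS 4 or without PDGFB 1 and 3 without PDGFB 3. Nfe2l2 (1.96 ± 0.16) was higher, while Hmox1 (0.44 ± 0.17) did not pass, except without PDGFB 2 at 0.60 with an adjusted p of 0.0158. Of the Hippo coactivators, Wwtr1 (2.10 ± 0.25) and Yap1 (2.11 ± 0.26) were higher, and so were Tgif1 (2.73 ± 0.31), Hk2 (1.49 ± 0.25), H19 (2.37 ± 0.60) and Kcnn4 (3.32 ± 0.15).

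In the other direction, NRAS tumors were lower than PDGFB tumors in 19 of 31 splicing factors, 16 of 38 kinetochore genes, 10 of 17 glutamate receptor subunits, 22 of 63 protocadherins and 69 of 330 Zfp genes. Without NRAS 3, NRAS 4, PDGFB 2 or PDGFB 3 the splicing count was 10, 10, 12 or 11, and without NRAS 3 or PDGFB 3 the glutamate receptor count was 6. The protocadherin count was 12 without NRAS 3 or NRAS 4, 14 without PDGFB 1 or PDGFB 2 and 11 without PDGFB 3, and the Zfp count 40, 38, 42, 36 and 34 without NRAS 3, NRAS 4, PDGFB 1, PDGFB 2 and PDGFB 3. Examples are the kinetochore gene Knstrn (−1.24 ± 0.26), the mitotic kinesin Kif11 (−1.54 ± 0.36), the AMPA receptor subunits Gria2 (−1.29 ± 0.34) and Gria4 (−1.29 ± 0.27) and the nicotinic subunit Chrna4 (−1.70 ± 0.32). Gria1 went the other way with 1.33 ± 0.44, a call lost without any 1 of NRAS 2, NRAS 3, NRAS 4, PDGFB 2, PDGFB 3 or PDGFB 4. Among markers of oligodendrocyte progenitors, Olig2 (−2.08 ± 0.48) and Sox10 (−2.01 ± 0.39) were also lower in NRAS tumors. Myelin genes had a median difference of 0.094, with 0 higher and 2 lower of 24. Pdgfra apart, values of other progenitor markers for this comparison are not given here. The part of such cells in the receptor difference was not tested. The metalloproteinase Mmp15 stood at 45.4, 55.9, 41.2 and 5.85 FPKM in NRAS tumors and 263 to 363 FPKM in PDGFB tumors, a difference of −3.36 ± 0.54, and Mmp10 differed by −4.05 ± 0.28. Few or no members differed between the models in some families that changed against normal brain: of 79 cytosolic ribosomal proteins 1 was higher and 1 lower, with at most 4 lower, without NRAS 1, in fits that left out 1 library and 6 lower after quantile normalization. Of 34 proteasome subunits 0 passed limma's adjusted threshold and 3 an unadjusted p under 0.05, and 3 were higher without NRAS 2 and 8 with array weights. Of 24 myelin genes 2 were lower, or 1 in each fit without NRAS 3, NRAS 4 or a PDGFB tumor. A difference that does not pass the test is not shown to be absent.

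**Figure D5:**
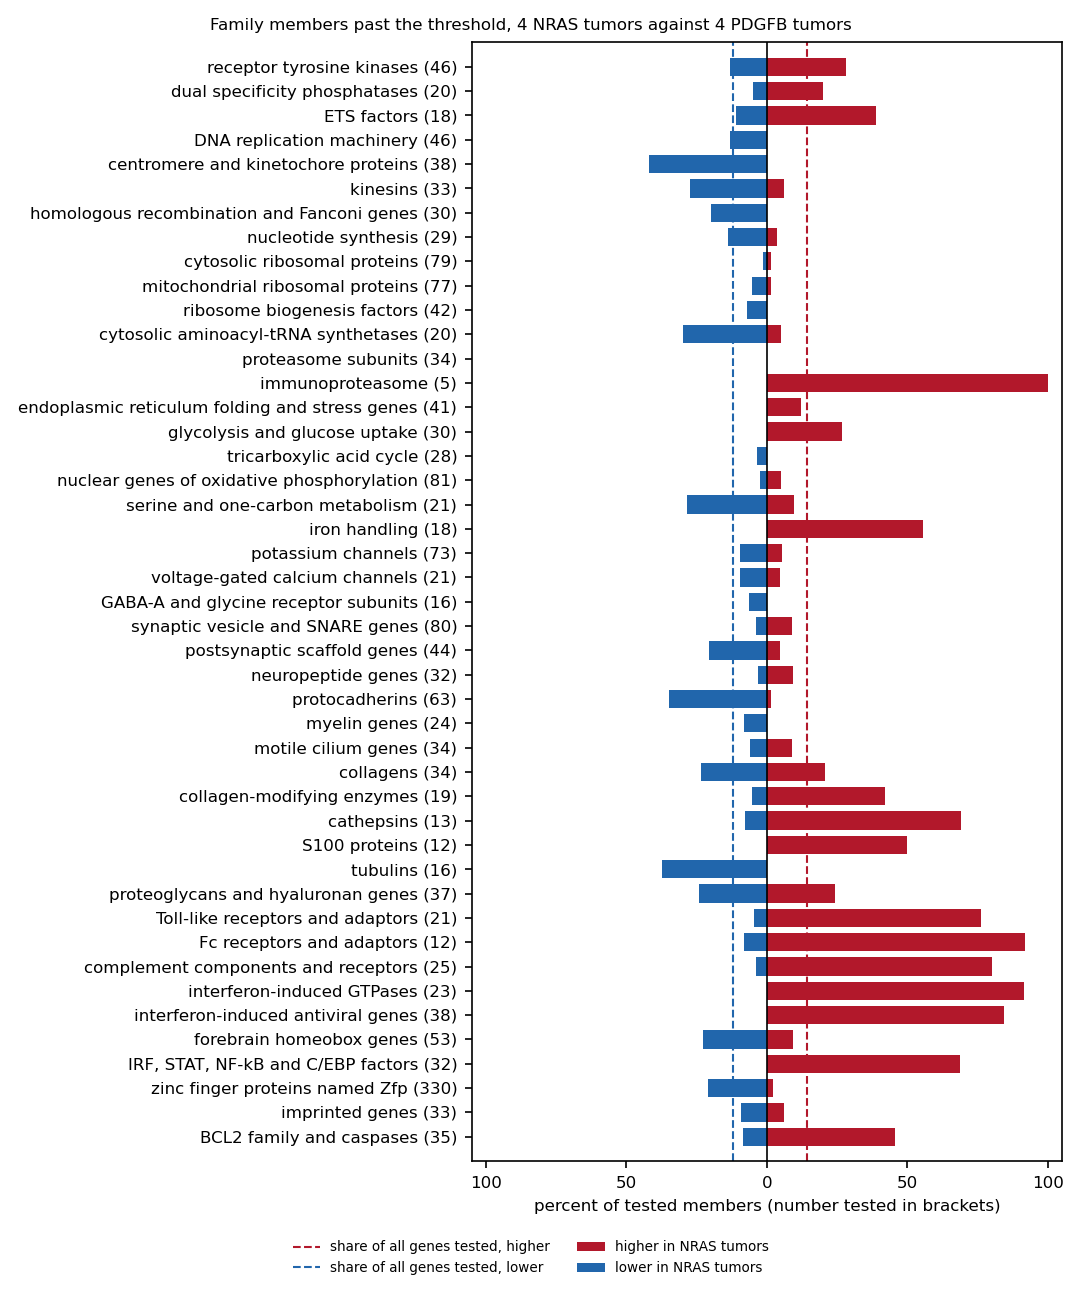
Share of tested members of the same 45 families, in percent, that were higher (red) or lower (blue) in 4 NRAS tumors than in 4 PDGFB tumors, with dashed lines at the shares over all genes, 14.3% and 12.2%. Immune families extend far to the right, and centromere and kinetochore proteins extend to the left with 0 members on the right.

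Position and length of genes were compared as properties that no family list used. By chromosome, the median log2 change ran from −0.22 on the X chromosome (502 genes) to 0.16 on chromosome 19 (500 genes), with −0.16 on chromosome 12. Each of the 4 NRAS tumors had a negative median on chromosome 12, and likewise on chromosomes 2, 16, 18 and X. The 4 PDGFB tumors also had negative medians on chromosome 12, from −0.094 to −0.004. By length of the genomic span, genes of the shortest 20% had a median log2 change of 0.17, with 38.5% higher and 23.9% lower, and genes of the longest 20% a median of −0.38, with 18.8% higher and 44.5% lower. Of 2102 genes of at least 100 kb, 48.4% were lower and 16.8% higher. Long genes include many channel, receptor and adhesion genes of the families above, and the 2 properties were not separated here.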

How the data were processed

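RNA of 4 NRAS tumors, 4 PDGFB tumors and 3 normal mouse brains was sequenced. The authors deposited 1 table of FPKM values; per the submitters' processing notes TopHat2 2.0.13 and Cufflinks 2.2.1 were used with the mm10 genome, with the settings, annotation and strand handling not given in the sources used here. Cufflinks estimates FPKM from reads shared among transcripts, so near-identical genes are uncertain, and FPKM moves with the share taken by abundant small RNAs. The table had 24347 lines, of which 27 whose symbols had turned into dates were left out; 24206 of the rest matched a RefSeq symbol or synonym. Libraries were grouped by their titles and labels.

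Genes that reached 1 FPKM in 3 or more of the 11 libraries were tested with limma 3.58.1 (R 4.3.3) on log2(FPKM + 1), with 1 mean per group, a shared spread and trended empirical Bayes moderation; p-values were two-sided and adjusted by Benjamini and Hochberg over all 14491 genes. The table gives no counts, so depth is known only as a ratio between libraries and no counting interval can be given.

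Members of 109 families were taken by symbol or symbol pattern, and 1 family had no tested member; the members and lists were chosen with earlier results of these data known. Counts and medians describe families, with no set test. Genes were named by rule: the 20 largest changes in each direction where groups did not overlap and the higher one had a mean of 5 FPKM or more, up to 4 members per family in each direction with the most abundant ones, all members of small families, cell type markers, the driver and related genes, the 10 most and the 10 least variable genes among tumors at 20 FPKM or more, and up to 3 members per family that passed in both comparisons. Predicted, small RNA, histone, immunoglobulin, T cell receptor and erythrocyte genes were kept out of the 20. The most and least variable genes were drawn only from genes called changed against normal brain. Some genes that the rule named are not reported here. Promoters are RefSeq windows of GRCm38.p6, cut to the 250 bases before the start site. The alternatives changed the pseudocount (0.1 or 5), the filter (none or 5 FPKM), the scaling, the groups in the fit, moderation, blocks and libraries; 1 was added after seeing the data.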

Additional observations from a re-analysis of the deposited data

Results flagged for a closer look

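Among 376 genes named in the report, 12 had 1 NRAS tumor standing apart from the other 3. The gap between the highest or lowest tumor and its nearest neighbor was divided by the range of the 4 tumors on the log2(FPKM + 1) scale. In these genes that share was above Dixon's critical value at 95% for 4 samples. Chance gives about 1 such gene in 20, a larger share than the 12 of 376 found here. NRAS 1 and NRAS 2 were the tumor apart in 4 genes each, NRAS 4 in 3 and NRAS 3 in 1.

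In NRAS 2 the adenylyl cyclase gene Adcy5 was highest, at 4.23, 8.52, 3.79 and 4.13 FPKM in NRAS 1 to 4 (gap share 0.8725), as were the astrocyte potassium channel gene Kcnj10, at 68.8, 173, 59.5 and 62.5 FPKM (0.8653), and Nap1l5, at 47.9, 129, 45 and 51.4 FPKM (0.8751). The nucleolar helicase gene Ddx21, at 45.8, 24.2, 42.5 and 45.8 FPKM (0.8806), was lowest there.

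In NRAS 1 the phosphatase gene Dusp6, at 151, 121, 117 and 116 FPKM (0.8393), the receptor gene Pdgfra, at 144, 52.3, 48.8 and 44.1 FPKM (0.8573), and the homeobox gene Otx2, at 0.375, 0, 0 and 0.031 FPKM (0.9043), were highest, and the potassium channel gene Kcnn4, at 10.4, 15.3, 15 and 14.9 FPKM (0.9363), was lowest. In NRAS 4 the coactivator gene Yap1 was highest, at 18.4, 16, 17.3 and 38.4 FPKM (0.8379), and the CDK inhibitor gene Cdkn2b, at 91.7, 95.3, 85.3 and 23.2 FPKM (0.9209), and the metalloprotease gene Mmp15, at 45.4, 55.9, 41.2 and 5.85 FPKM (0.8589), were lowest. In NRAS 3 the pattern receptor gene Clec7a was highest, at 51.5, 50.3, 254 and 52.2 FPKM (0.9775). No cause of these values was tested.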

How the results depend on the processing

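The counts of genes that differed from normal brain stayed within 1.5 times of 4631 higher and 4392 lower in all 21 alternatives. Leaving out 1 library gave 3944 to 4848 higher and 3691 to 4567 lower. The 5 libraries numbered 1834 to 1838 gave 3427 and 3074, and a fit without NRAS 3 and NRAS 4, chosen after seeing the data, gave 3824 and 3411. Quantile normalization gave 4284 and 4977, and rescaling without small RNA and mitochondrial genes gave 3958 and 4959; the second moved the median log2 change of all genes from 0.014 to −0.117, and changes there are to be read relative to it. The share of higher genes among calls was 51.3%, and 44.4% to 52.9% over the alternatives. A pseudocount of 5 lowered the counts of genes at least 2-fold higher or lower from 2560 and 2279 to 1552 and 1336, since it shrinks the changes of low genes.

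The comparison with PDGFB tumors was less stable. Leaving out 1 library gave 1545 to 2266 genes higher and 1033 to 1980 lower, from 2078 and 1774. The lower count was 1126 with only the 2 groups in the fit and 2953 with array weights, and without NRAS 3 and NRAS 4 the counts were 1103 and 467. The cause was not tested.

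With the replicate number as a block the counts were 4222 higher and 3984 lower against normal brain and 1897 and 1352 against PDGFB tumors. The number did not pair the samples: the deviations from the group means of the same-numbered normal brain and NRAS tumor had correlations of 0.05, −0.03 and −0.14, and no normal brain correlated best with the tumor of its number. Under the block 32 antiviral genes above PDGFB tumors became 20, 19 splicing factors below them 11, 27 mitochondrial ribosomal proteins above normal brain 14 and 19 proteasome subunits 12.

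Of 371 named genes 0 had a call that reversed; of genes that did not pass, Hspa8 ran from −0.42 to 0.15, Kcnj10 from −0.71 to 0.06 and Slc1a3 from −0.14 to 0.10. Leaving out 1 library ended 3 to 10 of their calls, the 5 libraries numbered 1834 to 1838 ended 24, and alternatives that kept all libraries and had no block ended 0 to 4, with fewer genes tested under the filter of 5 FPKM. Of 216 family counts 195 to 210 stayed within 1.5 times in fits without 1 library, 168 within those titles and 177 to 216 in alternatives that kept all libraries. Nuclear genes of oxidative phosphorylation that fell numbered 26, but 42 after quantile normalization and 49 after rescaling. Zfp genes below PDGFB tumors numbered 69, 123 after quantile normalization and 34 with only the 2 groups, and protocadherins 22, 36 and 13. The table holds no read counts, so the counting error of low genes could not be given.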
